A study of Homo sapiens with 4 samples.

Results

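The 2 arms of chromosome 3 were examined in 4 lists of ChIP-seq peaks from OECM1, a long-established line of head and neck cancer cells. Peaks were taken on the short arm (3p) from 3 to 87.5 Mb and on the long arm (3q) from 96.5 to 195 Mb of the build GRCh37. By these limits, 458 of the 11483 peaks in the lists (3.99%) were members, 165 on 3p and 293 on 3q. Another 85 peaks of chromosome 3 lay outside the limits: 9 before 3p, 39 around the centromere and 37 beyond 3q. Control cells carried Cas9 with a control construct, and edited cells carried Cas9 directed at ARID3B. Each kind of cell was precipitated with an antibody against ARID3B and with an antibody against KDM4C, which gave 4 groups of 1 library each. All cells were grown in RPMI with 10% fetal bovine serum. The series title calls the edited cells a knockout and the sample titles a knockdown. Whether they are 1 clone is not given in the sources used here. The ARID3B level left in them was not analysed here.

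Head and neck cancers often lose 3p, which carries tumour suppressor genes such as FHIT, VHL and RASSF1. They often gain distal 3q, which carries SOX2, a transcription factor of stem cells and squamous epithelium, TP63, the p53-family regulator of basal squamous cells, and PIK3CA, the catalytic subunit of a lipid kinase. ARID3B binds DNA through an AT-rich interaction domain, and KDM4C removes methyl groups from histone lysines. A ChIP library made without an input control records where tags gather, so the number of DNA copies, mapping and binding all contribute to a peak list. The copy number of chromosome 3 in these cells was not measured in the files.

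The ARID3B lists held 3264 (control) and 4834 (edited) peaks, from 24439463 and 20878112 filtered tags. The KDM4C lists held 1494 and 1891 peaks, from 20668533 and 16209985 filtered tags. With 1 library a group, no difference has a replicate check, and every 95% interval below is exact and covers counting error only. The peaks on the arms were small. The median peak had 10 or 11 tags on 3p and between 9.50 and 12 tags on 3q, and the smallest had 9 or 10. Between 59.3% and 77.1% of the 3p peaks of a list scored under 60, where the score is the caller's p-value on a scale of minus 10 log10 and the calling threshold is 50. On 3q the share was between 73.5% and 90.0%. A score of 100 was reached by 3, 2, 1 and 2 peaks on 3p and by 1, 0, 1 and 0 peaks on 3q (ARID3B control, ARID3B edited, KDM4C control, KDM4C edited). On the other autosomes, between 8.87% and 21.3% of the peaks of a list reached that score. Here and below, the other autosomes were counted whole, with their centromere and end regions, which the arm limits leave out on chromosome 3.

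The first comparison asked whether the arms differed in peak number. With the ARID3B antibody, 3q held more peaks per Mb than 3p in both kinds of cells. In control cells 98 peaks lay on 3q and 48 on 3p, or 0.995 and 0.568 peaks per Mb. The 3q to 3p ratio of these densities was 1.75 (95% interval 1.23 to 2.53). In edited cells 133 peaks lay on 3q and 66 on 3p, or 1.35 and 0.781 per Mb, a ratio of 1.73 (1.28 to 2.36). When only peaks scoring 60 or more were counted, the ratios were 2.03 (0.968 to 4.55) and 1.24 (0.680 to 2.32), and both intervals then included 1.

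With the KDM4C antibody, no such difference was detectable at these counts. Control cells had 22 peaks on 3q and 24 on 3p, a density ratio of 0.786 (0.420 to 1.46). Edited cells had 40 and 27, a ratio of 1.27 (0.761 to 2.15). The antibodies were compared directly by the odds ratio of arm by antibody. The preference for 3q was larger with ARID3B than with KDM4C by 2.22 (1.07 to 4.62) in control cells, and by 1.36 (0.734 to 2.49) in edited cells, where the interval included 1.

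The excess of ARID3B peaks on 3q lay in its distal part. In windows of 5 Mb, the 13 complete windows of 3q up to 165 Mb each held between 1 and 6 ARID3B peaks in control cells. From 165 Mb to the end of the arm limit, the 6 windows held 4, 9, 12, 11, 11 and 12. In edited cells those 6 windows held 19, 13, 9, 17, 7 and 15 ARID3B peaks, and the 13 windows before them held between 1 and 9. These 30 Mb, a span chosen after the counts were seen and therefore given with no test, held 59 of the 98 control peaks and 80 of the 133 edited peaks, 60.2% in each list.

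Proximal 3q did not stand above 3p. Its ARID3B density was 0.569 peaks per Mb in control cells, beside 0.568 on 3p, and 0.774 in edited cells, beside 0.781 on 3p. Distal 3q had 1.97 and 2.67 ARID3B peaks per Mb. KDM4C peaks were denser on distal 3q as well, from much smaller numbers. There were 13 distal and 9 proximal peaks in control cells (0.433 and 0.131 per Mb) and 19 and 21 in edited cells (0.633 and 0.307 per Mb). Most distal windows were well filled with ARID3B peaks in control cells, but they were not at the extreme of the genome. In control cells, 5 of the 6 held more ARID3B peaks than between 81.9% and 89.7% of the 526 windows of the other autosomes. The window from 165 to 170 Mb held more than 50.6% of them. In edited cells the 6 windows held more ARID3B peaks than between 58.0% and 91.8% of those windows. For KDM4C the range was 0% to 85.0% in control cells and 25.3% to 85.9% in edited cells.

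**Figure D1:**
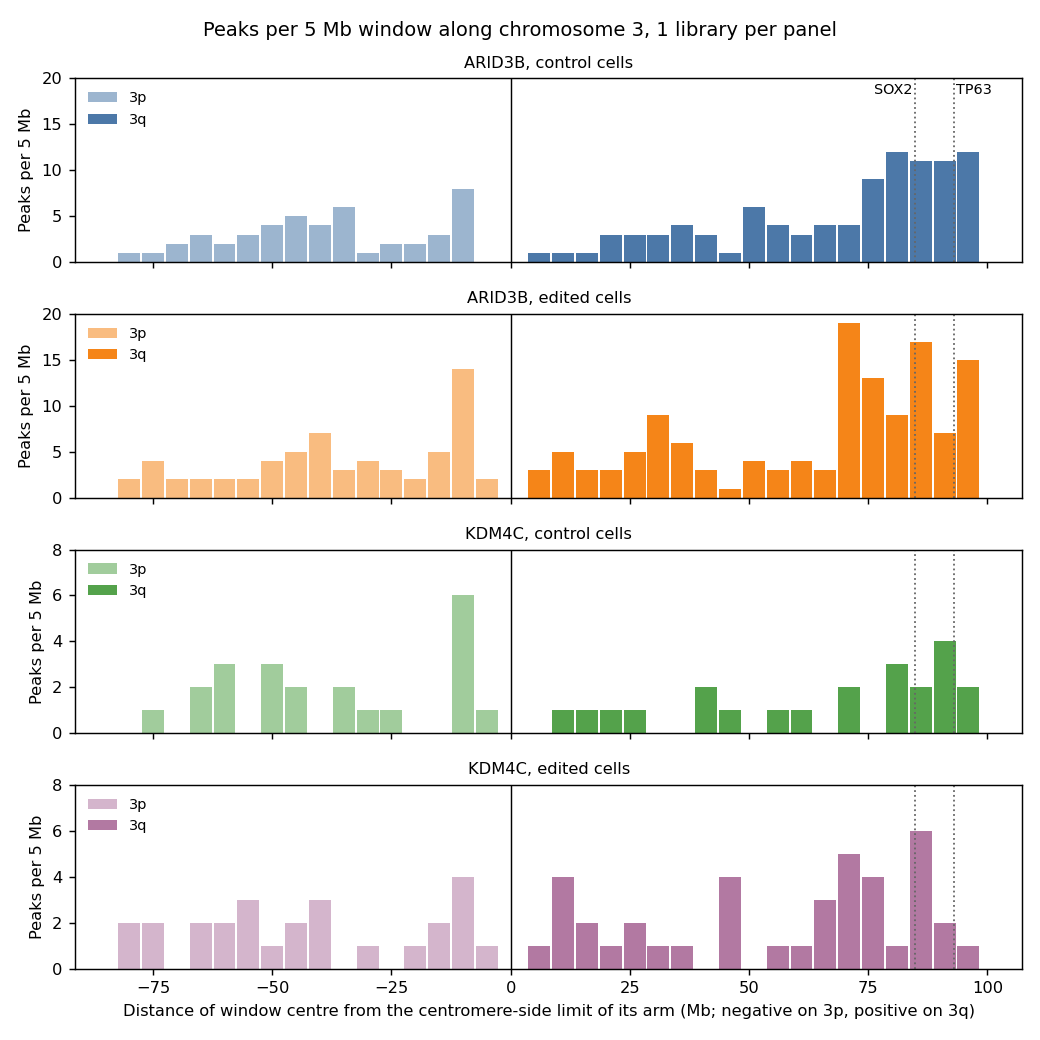
Peaks in each complete 5 Mb window of 3p (pale) and 3q (dark), 1 panel per library, against the distance of the window centre from the centromere-side limit of its arm. The vertical scale is 0 to 20 peaks for ARID3B and 0 to 8 for KDM4C, dotted lines mark SOX2 and TP63, and the last 6 windows of 3q hold 59 control and 80 edited ARID3B peaks.

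On 3p the fullest window ran from 75 to 80 Mb. ARID3B peaks there numbered 8 and 14, and KDM4C peaks 6 and 4, in control and edited cells, and the other 15 complete windows of 3p held at most 7 peaks of any list. No ARID3B peak of control cells lay between 80 and 85 Mb. Across the 35 windows of both arms, the ARID3B counts of control and edited cells had a Spearman rho of 0.66. The KDM4C counts of control and edited cells had a rho of 0.08, and control ARID3B and control KDM4C counts had 0.35. These are descriptions over neighbouring windows of 1 chromosome, and most windows held at most 2 KDM4C peaks of a list.

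Local background gave a second view of the arms. It is the tag density that the caller expected at a peak, recovered here from the deposited tag count and score, and it is given as a multiple of the library's genome mean. The caller took it from a window of 10 kb around the peak and never set it below the genome mean. A peak at the genome mean is therefore one whose surroundings held no more tags than average. At control ARID3B peaks the median was 1.04 on 3p (quartiles 1.0 to 1.13, 47 peaks), 1.12 on 3q (1.0 to 1.29, 98 peaks) and 1.26 on the other autosomes (1.02 to 1.75, 2914 peaks). In the other 3 lists the medians lay between 1.0 and 1.08 on 3p and between 1.02 and 1.09 on 3q. A peak's own tags are part of that window, and with them taken out the arm medians were 1.0 in all 4 lists. Peaks already at the genome mean, 34.7% to 61.5% of those on an arm, were kept at 1.0 in that step. This holds the medians near 1.0, so they cannot show whether the arms differ.

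The share of peaks at the genome mean was compared between arms. In control cells it was 46.8% (22 of 47) on 3p and 34.7% (34 of 98) on 3q for ARID3B. In edited cells it was 53.0% (35 of 66) and 43.6% (58 of 133). For KDM4C it was 41.7% and 36.4% in control cells and 61.5% and 47.5% in edited cells. The share was thus lower on 3q in every list, but each odds ratio of 3q to 3p had an interval that included 1. These odds ratios were 0.606 (0.281 to 1.31) and 0.686 (0.363 to 1.29) for ARID3B, and 0.804 (0.206 to 3.07) and 0.570 (0.182 to 1.72) for KDM4C.

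Peaks called in a single list were also compared with those of the other autosomes. Such peaks sat at the genome mean on 3p more often than on the other autosomes. For control ARID3B it was 20 of 39 (51.3%) against 30.1%, an odds ratio of 2.44 (1.23 to 4.87). In edited cells it was 32 of 55 (58.2%) against 31.8%, an odds ratio of 2.99 (1.69 to 5.38). For KDM4C the odds ratios were 2.96 (0.965 to 9.47) in control cells and 4.62 (1.82 to 12.7) in edited cells. The surroundings of 3p peaks were thus more often at or below the average tag density than those of peaks on other autosomes in 3 of the 4 lists, by intervals that excluded 1. On 3q the odds ratios were 1.23 (0.776 to 1.94) and 1.72 (1.19 to 2.5) for ARID3B and 1.53 (0.536 to 4.15) and 2.34 (1.14 to 4.78) for KDM4C, so only the intervals of the edited cells excluded 1.

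Along 3q the background was uneven. The share of peaks at the genome mean was compared between proximal and distal 3q as a description, since the span was chosen after seeing the data. For control ARID3B peaks it was 23 of 39 proximal and 11 of 59 distal, and for edited ARID3B peaks 33 of 53 and 25 of 80. For KDM4C it was 6 of 9 and 2 of 13 in control cells, and 12 of 21 and 7 of 19 in edited cells. In each list the proximal share was the higher one. The window medians over single-list peaks of all 4 lists ran from 1.0 to 1.05 in the 12 proximal windows with at least 5 such peaks. In the 6 distal windows they were 1.02, 1.11, 1.10, 1.22, 1.26 and 1.16 in order along the arm. The 2 highest of these, 1.22 and 1.26, belonged to the windows from 180 to 185 Mb and from 185 to 190 Mb that hold SOX2 and TP63. The highest window median of either arm, 1.35, was on 3p, from 75 to 80 Mb. Over the windows of the other autosomes with a value, the median was 1.05 and the highest 8.23. Over single-list peaks, the distal medians in control and edited cells were 1.19 and 1.07 for ARID3B and 1.16 and 1.13 for KDM4C. On the other autosomes they were 1.16 and 1.15 for ARID3B and 1.18 and 1.17 for KDM4C. Distal 3q thus stood above proximal 3q, but above the other autosomes only for control ARID3B. Own tags were also taken out here, with peaks at the genome mean again kept at 1.0. The distal medians over single-list peaks were then 1.05 and 1.03 for ARID3B and KDM4C in control cells and 1.0 for both in edited cells.

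Over the 469 autosomal windows with a value, the number of single-list peaks and their median background had a Spearman rho of 0.70. Over the 31 such windows on the arms it was 0.63. Both quantities come from the same tags, and the part of coverage in the peak numbers was not tested. Loss of 3p or gain of distal 3q was not tested and could not be read from these values. Copy number was not measured, and the caller never set the background below the genome mean.

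**Figure D2:**
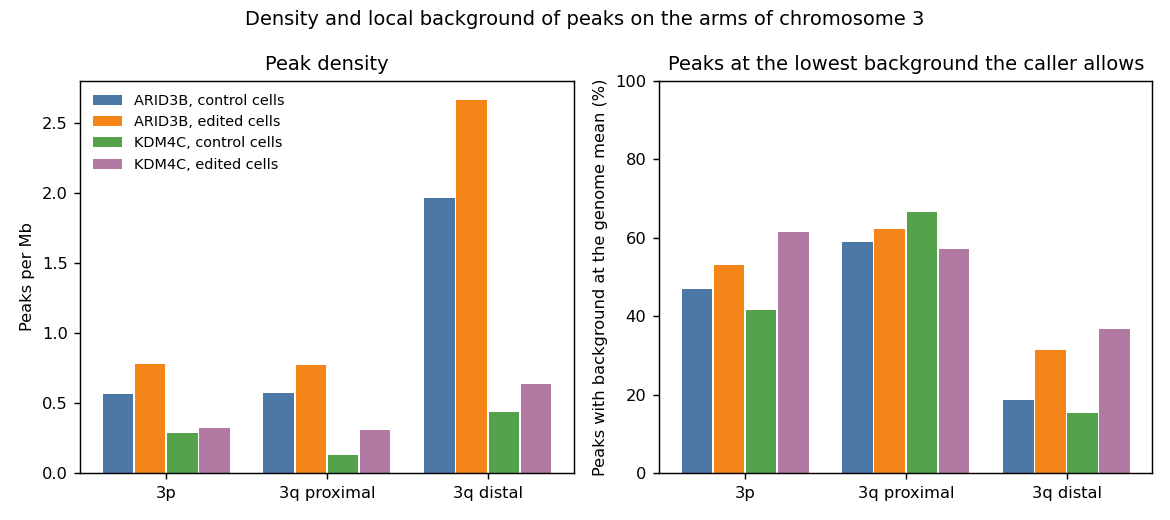
Left, peaks per Mb on 3p, proximal 3q and distal 3q in each library. Right, the share of peaks whose local background equals the genome mean; distal 3q combines the highest densities, such as 1.97 and 2.67 ARID3B peaks per Mb, with the lowest shares in each list.

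**Figure D3:**
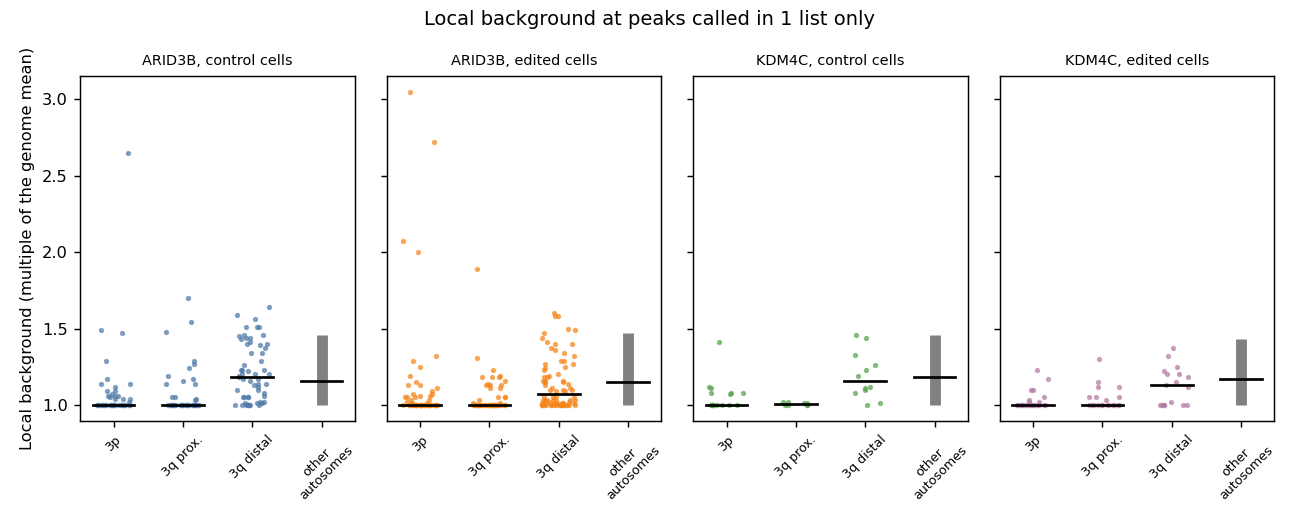
Local background, as a multiple of the genome mean, at peaks called in 1 list only; each point is a peak, black lines are medians, and the grey bar spans the quartiles on the other autosomes. Points on 3p and proximal 3q gather at 1.0, and the distal 3q medians are 1.19, 1.07, 1.16 and 1.13 in the order of the panels. The medians on the other autosomes are 1.16, 1.15, 1.18 and 1.17.

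The second comparison asked whether ARID3B editing went with a change in peak number on either arm. ARID3B peaks numbered 48 in control and 66 in edited cells on 3p, a ratio of 1.38 (0.934 to 2.04), and 98 and 133 on 3q, a ratio of 1.36 (1.04 to 1.78). The other autosomes had a ratio of 1.48 (1.41 to 1.55). Relative to them, 3p stood at 0.927 (0.628 to 1.38) and 3q at 0.915 (0.697 to 1.21), so neither arm departed from the rest beyond counting error. With peaks within 10 kb counted as 1, the 3q ratio was 1.31 (0.997 to 1.72). The arms differed from each other by 0.987 (0.610 to 1.59).

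KDM4C peaks went from 24 to 27 on 3p (1.12, 0.625 to 2.04) and from 22 to 40 on 3q (1.82, 1.05 to 3.21), beside a ratio of 1.29 (1.20 to 1.39) on the other autosomes. Relative to those, 3p stood at 0.869 (0.480 to 1.58) and 3q at 1.4 (0.810 to 2.49). The ratio on 3q was 1.61 (0.708 to 3.69) times that on 3p. With the fullest 3q window (180 to 185 Mb) left out, the 3q ratio was 1.70 (0.951 to 3.12), and at scores of 60 or more only 4 KDM4C peaks were left on 3q in each kind of cell.

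By window, a change was called where control and edited peaks summed to at least 5 and their ratio lay at least 2-fold above or below that of all windows. With ARID3B, 10 of the 27 testable windows on the arms were called (37.0%), beside 30.5% of all autosomal windows, 5 higher and 5 lower. With KDM4C, 4 of 7 were called, beside 31.2% of all. The ARID3B share is near the background, and 7 KDM4C windows are too few to read a share from.

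The ARID3B windows called higher on 3p ran from 10 to 15 Mb (1 and 4 peaks in control and edited cells) and from 55 to 60 Mb (1 and 4). Those called lower there ran from 20 to 25 Mb (3 and 2), from 30 to 35 Mb (3 and 2) and from 50 to 55 Mb (6 and 3). On 3q, the windows from 105 to 110 Mb (1 and 5) and from 125 to 130 Mb (3 and 9) were called higher, and that from 145 to 150 Mb (6 and 4) lower. All of these rest on at most 12 peaks. KDM4C was called higher from 105 to 110 Mb (1 and 4), from 140 to 145 Mb (1 and 4) and from 180 to 185 Mb (2 and 6).

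The window from 165 to 170 Mb moved most in number. ARID3B peaks numbered 4 in control cells and 19 in edited cells there, and KDM4C peaks 2 and 5. Its ARID3B ratio was 3.20 times that of all windows. The first control ARID3B peak of the window began at 168204997, and 14 of the 19 edited ARID3B peaks lay before it, as did 4 of the 5 edited KDM4C peaks and 1 of the 2 control KDM4C peaks. The 19 edited peaks had 9 to 18 tags each and fold enrichments from 7.91 to 13.1, and 13 of them scored under 60. Their local background was at the genome mean for 11 of 19, whereas none of the 4 control ARID3B peaks was at it. None of the 30 peaks in the window overlapped a peak of another list. Such absence of overlap was usual and does not set the window apart. With overlapping peaks of the 4 lists merged into regions, 98.2% of those on 3q were called in 1 list only. On the other autosomes the share was 88.9%. In the window from 185 to 190 Mb, ARID3B peaks went from 11 to 7 and KDM4C peaks from 4 to 2, and both were called lower.

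The third comparison asked which peaks of the arms were found again in the other kind of cells. An ARID3B peak of control cells on 3q almost never had a counterpart in edited cells. It had 1 (an overlap of at least 1 bp) for 2 of 98 peaks, or 2.04% (0.248 to 7.18), beside 25.2% of the whole control list. On 3p it was 8 of 48, or 16.7% (7.48 to 30.2). The share on the other autosomes was 23.5%, and the odds ratio to them was 0.0680 (0.00810 to 0.254) for 3q and 0.652 (0.263 to 1.42) for 3p. Between the arms, the odds ratio of 3q to 3p was 0.106 (0.0105 to 0.563). Over whole autosomes other than chromosome 3 the share ran from 10.7% on chromosome 14 to 37.6% on chromosome 8. Chromosome 3, when also counted whole, lay inside that range, near its lower end. The 3q share leaves out the centromere and end regions, so it is not a like value to that range.

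In the other direction, 3 of 133 edited ARID3B peaks on 3q (2.26%) and 8 of 66 on 3p (12.1%) overlapped a control peak, beside 17.3% of the whole edited list. All of the shared ARID3B peaks of 3q were proximal. On distal 3q, 0 of 59 control peaks and 0 of 80 edited peaks overlapped the other list, and the exact intervals reach 6.06% and 4.51%. The dense distal span thus held called ARID3B peaks in both kinds of cells, with no overlap between the lists. Most of these peaks were weak, and 69.5% in control and 76.2% in edited cells scored under 60. On the other autosomes 6.97% of such control peaks were called again. How often the same cells would repeat such peaks cannot be told from 1 library a group, so a difference in place was not tested.

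KDM4C gave low shares as well. Of the control KDM4C peaks, 2 of 24 on 3p (8.33%) and 1 of 22 on 3q (4.55%) were called again in edited cells, beside 36.7% of the whole list. The odds ratios to the other autosomes were 0.171 (0.0194 to 0.701) and 0.0897 (0.00216 to 0.561). At scores of 60 or more they were 0.261 (0.0234 to 1.84) and 0.174 (0.00330 to 2.18), from 6 and 4 peaks, and included 1. Of the edited KDM4C peaks, 2 of 27 on 3p and 1 of 40 on 3q overlapped a control peak, beside 27.7% of that list. Counted whole, chromosome 3 had 18.6% of its control KDM4C peaks called again. The other whole autosomes ran from 5.56% to 63.6%.

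The shares called again were then given by score class. Of control ARID3B peaks scoring under 60, 0 of 72 on 3q were called again (interval up to 4.99%), beside 4 of 37 (10.8%) on 3p and 6.97% on the other autosomes. Between 60 and 100 it was 1 of 25 (4.0%) on 3q, 1 of 8 on 3p and 28.2% elsewhere. All 3 peaks on 3p and the 1 peak on 3q that scored 100 or more were called again, as were 93.5% elsewhere. As a further check, added once the values were known, windows holding a region called in all 4 lists were left out on every autosome. The ARID3B share was 1 of 97 on 3q (1.03%), 3 of 40 on 3p (7.50%) and 7.83% on the other autosomes. The odds ratio to those was 0.123 (0.00305 to 0.712) for 3q and 0.954 (0.186 to 3.08) for 3p. For KDM4C the shares were then 0 of 18 on 3p and 0 of 21 on 3q, beside 1.62% on the other autosomes, and the low KDM4C shares of the arms were no longer detectable as a difference. The check leaves windows out by overlap itself, and the KDM4C share on the other autosomes had been 34.7% before. It cannot decide whether the KDM4C shares of the arms differ.

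**Figure D4:**
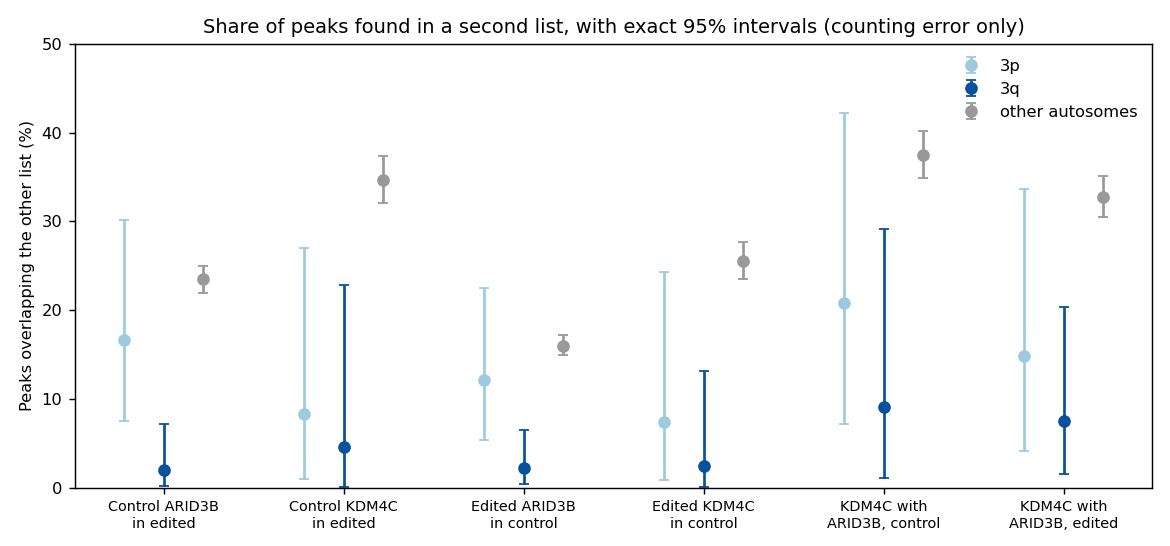
Share of the peaks of 1 list that overlap a peak of a second list by at least 1 bp, on 3p, 3q and the other autosomes, with exact 95% intervals that cover counting error only. The 3q shares lie between 2.04% and 9.09%, below those of the other autosomes in every pair.

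The antibodies were then compared within the same cells. In control cells 5 of 24 KDM4C peaks on 3p (20.8%, 7.13 to 42.2) and 2 of 22 on 3q (9.09%, 1.12 to 29.2) overlapped an ARID3B peak, beside 39.3% of the whole list. In edited cells they were 4 of 27 (14.8%) and 3 of 40 (7.50%), beside 35.2%. The odds ratios of 3q to the other autosomes were 0.167 (0.0188 to 0.691) and 0.166 (0.0327 to 0.529). For 3p they were 0.438 (0.127 to 1.22) and 0.357 (0.0893 to 1.05). At scores of 60 or more the 3q odds ratios were 0.476 (0.0343 to 6.61) and 0.187 (0.00354 to 2.34), from 4 peaks each, and the 3p odds ratio in control cells was 2.37 (0.263 to 113). Seen from ARID3B, 6 of 48 peaks on 3p and 2 of 98 on 3q overlapped a KDM4C peak in control cells, beside 17.8% of that list. In edited cells it was 4 of 66 and 3 of 133, beside 14.3%. Outside the windows with a region called in all 4 lists, the share of KDM4C peaks with ARID3B was 2 of 18 on 3p, 1 of 21 on 3q and 4.26% on the other autosomes in control cells. The odds ratio to the other autosomes was then 1.12 (0.0259 to 7.75) for 3q, and in edited cells it was 0.686 (0.0782 to 2.78). A lower overlap of the antibodies on 3q than elsewhere was not detectable outside those windows. Leaving them out selects on overlap itself, and the control share on the other autosomes had been 37.5% before. With so few overlapping peaks left, the check cannot decide whether 3q differs.

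When the 4 lists were merged, 3p had 144 regions and 3q had 285. On 3q 280 of them (98.2%) were called in 1 list, 4 in 2, none in 3 and 1 in all 4. On 3p 133 (92.4%) were called in 1 list, 5 in 2, 4 in 3 and 2 in all 4. On the other autosomes 88.9% were called in 1 list and 4.11% in all 4.

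The region called most strongly on 3p lay on chromosome 3 from 75717928 to 75719315. The authors' fold enrichment of its leading peak was 19.25 and 21.28 with ARID3B and 18.01 and 22 with KDM4C, in control and edited cells. Its peaks held 112, 163, 61 and 96 tags in that order. The local background was 3.27, 4.38, 3.10 and 4.16 times the genome mean, the highest multiples among the regions of the arms called in all 4 lists. All 4 libraries thus gathered tags there with either antibody.

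That region lay in a crowded Mb. Between 75000001 and 76000000, ARID3B had 7 and 12 peaks and KDM4C 5 and 2, with a median background between 2.14 and 4.25 times the genome mean in each list. Another region, from 75697316 to 75699049, was called with ARID3B in both kinds of cells (107 and 64 tags) and with KDM4C in control cells (36 tags). One from 75736636 to 75737368 was called with ARID3B in both (31 and 54 tags) and with KDM4C in edited cells (44 tags). The fold enrichments of both regions were low, between 5.02 and 7.55, beside tag counts far above the median of the arm. The regions from 75840359 to 75840707 and from 75908829 to 75909077 were called with ARID3B in edited cells and with KDM4C in control cells.

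The other region of 3p called in all 4 lists was of a different kind. It lay from 78980350 to 78980690 and held only 11, 15, 12 and 11 tags, with a local background at the genome mean in every list. Its fold enrichments were 11.56 and 21.28 with ARID3B and 17.52 and 15.78 with KDM4C. A region from 32807500 to 32807737 was called with 14 and 11 ARID3B tags and, in edited cells, 10 KDM4C tags. No control KDM4C peak was called there. A peak from 38125805 to 38126185 was called in 3 lists with 20, 17 and 18 tags and was missing from the edited KDM4C list. One from 48252059 to 48252413 was called with ARID3B alone, in both kinds of cells, at fold enrichments of 11.02 and 11.41. The region from 61068954 to 61069221 was called with both antibodies in control cells, with 12 tags in each list, and that from 87394858 to 87395212 with ARID3B in edited and KDM4C in control cells, with 10 tags in each. The files give no tag count where no peak was called.

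On 3q the only region called in all 4 lists lay from 111274095 to 111275088. Its ARID3B tags numbered 73 in 1 control peak of 994 bp and 29 in 2 edited peaks of 233 and 294 bp. Its KDM4C tags numbered 61 in a control peak of 847 bp and 15 in an edited peak of 403 bp. The called widths differ between the lists, so the tag sums are not a fold change. The leading scores were 283.0 and 233.6 in the control lists and 91.4 and 65.0 in the edited lists, whereas the fold enrichment of the leading peak was 10.57 and 12.38 with ARID3B and 8.47 and 12.03 with KDM4C. The summit, in overlapping tags, was 13 and 9 for ARID3B and 10 and 9.13 for KDM4C.

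The 4 regions of 3q called in 2 lists were all small. One from 106084027 to 106084453 was called with the ARID3B antibody in both kinds of cells (20 and 11 tags). Apart from the region called in all 4 lists, it was the only region of 3q in both ARID3B lists. On distal 3q, regions from 172722830 to 172723184 and from 180397598 to 180397958 were called with both antibodies in edited cells, with 9 to 13 tags in each list. A region from 191872759 to 191873002 was called with both antibodies in control cells, with 11 ARID3B tags and 15 KDM4C tags.

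Peaks called in 1 list alone made up most of both arms. The highest fold enrichment among those of the control ARID3B list was 15.33, on 3q from 192873527 to 192873947, from 19 tags. It was followed on 3q by peaks from 157946670 to 157946867 and from 174883499 to 174883753, each at 12.85. On 3p the leading one, from 75998235 to 75998710, had 12.66 from 23 tags. In the edited ARID3B list the leading single-list peaks had 14.73 on both arms. They lay from 65176075 to 65176385 and from 70755507 to 70755838 on 3p, and from 104822534 to 104822845 on 3q, with 13, 13 and 14 tags and a background at the genome mean.

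For KDM4C, the leading single-list peaks of control cells lay from 44488774 to 44488960 on 3p (11.75 from 9 tags) and from 144318483 to 144318686 on 3q (12.74 from 10 tags). In edited cells they lay from 81105772 to 81106006 on 3p (15.78 from 10 tags) and from 173681908 to 173682172 on 3q (14.03 from 9 tags). Fold enrichments were computed by the authors within each list and describe a peak within that list.

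SOX2 and TP63, placed at 181.4 and 189.4 Mb, both lie in the dense distal span. The nearest edited ARID3B peak to the SOX2 position ran from 181430628 to 181430879, 31 kb above it, with 11 tags and a fold enrichment of 9.49. It was called in no other list. The nearest control ARID3B peak lay 385 kb below, and the nearest KDM4C peaks lay 1080 kb below in control cells and 255 kb above in edited cells. Within 1 Mb on either side of that position, ARID3B had 3 and 7 peaks and KDM4C 0 and 2 in control and edited cells. The gene position is rounded to 0.1 Mb, so whether the edited peak falls in SOX2 itself was not analysed here.

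No list had a peak within 0.1 Mb of the TP63 position. The nearest ARID3B peaks lay 482 kb below in control cells and 727 kb above in edited cells. The nearest KDM4C peaks lay 438 kb above and 406 kb below. Within 1 Mb, ARID3B had 2 and 2 peaks and KDM4C 2 and 1. All of the nearest peaks to SOX2 and TP63 had between 9 and 13 tags and were called in 1 list only.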

How the data were processed

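Peaks were called by the authors with MACS 1.4.2 in each library by itself, with no input library, calling at a p-value of 1e-05, a genome size of 2.7 Gb and a background window of 10 kb, per the file headers. The submitters' processing notes name GRCh37 as the build, with bcl2fastq 2.1.5 and BWA 0.7.12 as tools. The deposited tag counts are whole tags per peak, not normalized; the deposited score is minus 10 times log10 of the p-value; the deposited fold enrichment is a ratio to local background. Depth was 18015732 to 28249942 total tags.

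Arms, 5 Mb windows (from the chromosome start, wholly inside an arm) and regions were counted with Python 3.11.15, pandas 2.3.3 and scipy 1.17.1. Shares have Clopper-Pearson 95% intervals, ratios of counts exact binomial ones, and differences conditional odds ratios; no p-value was computed, because each group held 1 library. Peaks of a list can lie close together, so these intervals are minimal. Background was solved from the Poisson tail of tag count and score; it fell under the genome mean for 0.950% to 1.41% of the peaks of a list, which were left out. The summit is fold enrichment times background over the fragment length and came out whole within 0.05 for 90.3% to 95.4% of peaks. The overlap step, the background step and the interval of a ratio were tested on simulated data. Named regions were, on each arm, the leading 5 called in all 4 lists, the leading 3 of each list called nowhere else, the nearest to SOX2 and TP63, and the fullest or called windows; the regions called in 2 or 3 lists, and distal 3q, were added after their values were seen. The arms and lists were chosen with earlier results of these data known. No exon, intron or promoter is given, because annotation of that build was not used here.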

Additional observations from a re-analysis of the deposited data

Results flagged for a closer look

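In the 3p window from 75 to 80 Mb, the antibodies moved in opposite directions between control and edited cells. ARID3B peaks numbered 8 and 14, or 6 more in edited cells, and KDM4C peaks 6 and 4, or 2 fewer. Each count comes from 1 library, so this opposite movement was not tested. Of 5 windows on the arms with at least 5 peaks for each antibody, it was the only one with opposite directions.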

How the results depend on the processing

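Of 144 values recomputed under other settings, 114 stayed within the interval or quartiles of the reported value (for counts of windows, within 1.5 times) and 30 did not; no value whose interval excluded 1 changed direction. Extending the arms, joining peaks within 10 kb, dropping the fullest windows or the regions called in all 4 lists, dividing by depth, and an overlap of 50% left every ratio, share and median they applied to within its interval or quartiles. The ARID3B edited to control ratio on 3p then excluded 1 with the arms extended, 1.44 (1.01 to 2.06), and per filtered tag, 1.61 (1.09 to 2.39). Without the regions called in all 4 lists, called windows were 12 of 27 for ARID3B and 6 of 7 for KDM4C. Requiring a score of at least 60 moved 19, and the cause was not tested beyond the smaller numbers. The 3q to 3p ratio became 1.24 (ARID3B edited) and 0.312 (KDM4C edited, on the other side of 1). For KDM4C, the edited to control ratio became 1.0 on 3q, that of 3p over other autosomes 1.60, and that of 3q over 3p 0.559. Shares called again became 36.4% (4 of 11) and 7.69% (2 of 26) for ARID3B on 3p and 3q, beside 46.0% on the other autosomes, and 33.3% (2 of 6) and 25% (1 of 4) for KDM4C, beside 65.8%. KDM4C shares with ARID3B became 83.3% (5 of 6) and 50% (2 of 4) in control cells, beside 67.8%, and 36.4% (4 of 11) and 25% (1 of 4) in edited cells, beside 64.2%. Median background became 1.13 (3p, ARID3B control), 1.18 (3p, KDM4C control), 1.29 (3q, KDM4C control) and 1.22 (3q, KDM4C edited). Called windows became 3 of 6 for ARID3B and 0 of 1 for KDM4C, and with windows of 10 Mb 2 of 16 for ARID3B. Taking own tags out of the background brought all 8 arm medians to 1.0, with quartiles between 0.967 and 1.12. Peaks at the genome mean were kept at 1.0 in that step, which holds those medians near 1.0. Outside windows with a region called in all 4 lists, the KDM4C shares called again became 0 on both arms. No paired analysis was possible because each group held 1 library, and no replicate could be left out. The small number of KDM4C peaks, 22 to 40 on an arm, limits the KDM4C comparisons.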
